A study of Mus musculus with 30 samples.

Results

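The data describe the Moraxellaceae and Pseudomonadaceae, 2 families of Gammaproteobacteria, in mouse feces profiled by 16S rRNA gene amplicon sequencing. An amplicon sequence variant (ASV) is 1 exact sequence of the amplified gene region with its own read count in every sample. Every ASV whose family was given as Moraxellaceae or Pseudomonadaceae and that had at least 1 count in the 30 mice was taken, whatever its level in any group. This gave 1771 of the 12980 ASVs. Moraxellaceae held 1713 of them, with 1276 in Acinetobacter, 116 in Psychrobacter, 67 in Alkanindiges, 4 in Enhydrobacter and 250 without a genus name. Pseudomonadaceae held 58, with 31 in Pseudomonas and 27 without a genus name.

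The study asked how 3 phenylethanoids act on the fecal microbiota of mice with diet-induced metabolic disturbance. All animals were female C57BL/6 mice (C57BL/6J in the methods) labelled with an age of 6 weeks. The methods give this as the age at purchase, and feces were collected at the end of treatment, when the mice were older. The data hold 6 mice of each of 5 groups. The methods describe larger groups and a further group given pioglitazone, which is not among these samples. How the 6 mice of a group were chosen is not stated. The control group ate a normal diet and received saline by gavage, and the model group ate a high-fructose diet and received the same saline. The other three groups ate the high-fructose diet and received a phenylethanoid by gavage. Salidroside was dosed at 50 mg/kg, the tyrosol dose was 23 mg/kg and that of hydroxytyrosol 26 mg/kg. The doses of tyrosol and hydroxytyrosol were set by molar conversion from that of salidroside, so that the compounds were matched in moles. The sources used here differ on the length of treatment and do not say which mice shared a cage, and mice that share a cage also share fecal bacteria. The diet and the compounds were given together, so the treatment comparisons are made under the high-fructose diet alone, and the model mice serve in the diet comparison and in each treatment comparison.

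Moraxellaceae and Pseudomonadaceae are Gram-negative rods and cocci that live mainly by aerobic respiration and are common in soil, water, food and on skin. They differ in this from the obligate anaerobes that make up most of a healthy colon community. Acinetobacter is a non-motile genus of which A. lwoffii is a frequent colonist of skin and food, Psychrobacter is a cold- and salt-tolerant genus often found on animals and in marine or salted material, and Pseudomonas is a metabolically broad genus of soil, water and plants.

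The total was 41862 to 106609 counts a mouse, with group medians of 73619 in control, 98991 in model, 87214 in salidroside, 100956 in tyrosol and 86316.5 in hydroxytyrosol. At these depths the 95% Wilson interval of a single mouse's share was at most 0.459 percentage points on either side for Acinetobacter and 0.175 for Psychrobacter. A count of 0 allowed a share of up to 0.00281% in the deepest library and 0.00717% in the shallowest, taking 3 counts as the limit. These intervals and limits cover counting error alone, since amplified reads are not independent molecules. A share is relative to the other bacteria of the same sample, so more of one taxon and less of the others cannot be told apart. Shares are given as percent of the mouse's total count.

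The 2 families together ranged from 0.0543% to 86.4% of the counts over the 30 mice, with a mean of 34.1%, and went past 50% in 12 mice. The model mice held 50.8%, 53.4%, 86.4%, 78.3% and 69.6% in replicates 1 to 5 but 0.606% in replicate 6. The control mice held 47.5%, 1.62%, 0.0608%, 0.542%, 18.5% and 56.2% in the same order. The groups thus overlapped, with 5 model mice and 1 control mouse past 50%.

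Under the high-fructose diet the salidroside mice held a median of 27.4% (0.827% to 74.2%), the tyrosol mice 61.2% (1.18% to 76.3%) and the hydroxytyrosol mice 3.64% (0.0543% to 44.6%). Of the hydroxytyrosol mice, 0 went past 50% and 4 were under 5%, whereas 4 tyrosol mice and 2 salidroside mice were past 50%. Every group held at least 1 mouse under 5% and at least 1 past 40%, so the ranges of all 5 groups overlapped.

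**Figure D1:**
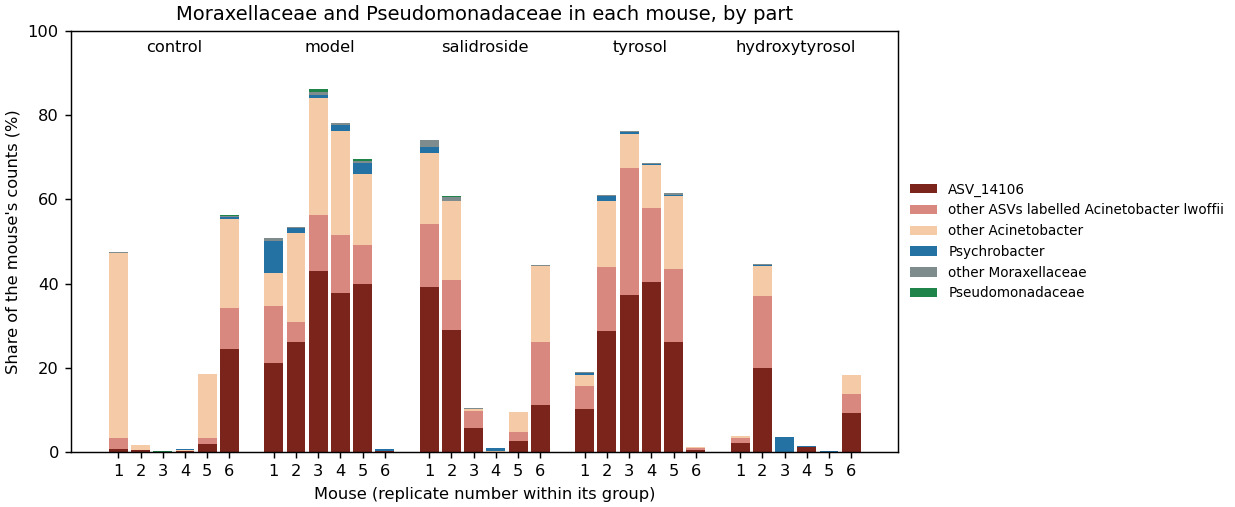
Share of each mouse's counts (%, linear axis) held by 6 parts of the 2 families, stacked, for the 6 mice of each of the 5 groups. In 5 of the 6 model mice the bars stand between 50.8% and 86.4%, and in the hydroxytyrosol mice between 0.0543% and 44.6%.

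In 3 of the mice with a low share of the 2 families, another genus of aerobic bacteria, Sporosarcina of the Planococcaceae, was abundant. It held 41.9% of the counts in model replicate 6, 27.97% in salidroside replicate 4 and 43.1% in hydroxytyrosol replicate 4. The same mice held 0.606%, 0.827% and 1.29% for the 2 families. Sporosarcina is named here after its values were seen, and its part in the results was not tested. Results that passed or failed a test because of one of these mice are given without it.

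Acinetobacter carried 96.7% of all counts of the 2 families and was found in all 30 mice. Its share was 53.5% ± 30.3 in model mice and 20.5% ± 24.96 in control mice (SD, n = 6 each), with medians of 59.0% and 9.98%. The lowest and highest mice were 0.166% and 84.2% in the model group and 0.0453% and 55.4% in the control group. A model mouse was higher than a control mouse in 28 of the 36 pairs, and the groups overlapped over most of their range. The difference of 32.98 percentage points had p = 0.0779 in a two-sided exact permutation test over the 924 splits of the 12 mice (adjusted p = 0.194 over the 92 genera tested, of which 32.6% had an unadjusted p under 0.05). In edgeR, which weighs fold changes of counts, the log2 fold change was 1.07 with a standard error (SE) of 1.53 (adjusted p = 0.627), and it turned to -0.0357 without model replicate 3.

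Among the treated groups, the Acinetobacter share was 32.4% ± 29.8 with salidroside (median 27.1%, 0.0571% to 71.1%), 47.3% ± 30.2 with tyrosol (median 60.2%, 1.05% to 75.7%) and 11.2% ± 17.5 with hydroxytyrosol (median 2.44%, 0.0312% to 44.1%, SD, n = 6 each). In hydroxytyrosol mice it was 42.3 percentage points below the model mean, with p = 0.0260 in the exact permutation test before adjustment and 0.159 after adjustment over 96 genera. A p under 0.05 before adjustment was reached by 21.9% of those genera. The hydroxytyrosol mouse was the higher of the pair in 5 of 36 pairs, and the edgeR log2 fold change was -2.82 with an SE of 1.80 (adjusted p = 0.411). The differences from the model mean were -21.1 percentage points with salidroside (exact permutation p = 0.249) and -6.25 with tyrosol (exact permutation p = 0.762). None of the 3 treatment comparisons passed the adjusted threshold of 0.05 for Acinetobacter in either test.

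**Figure D2:**
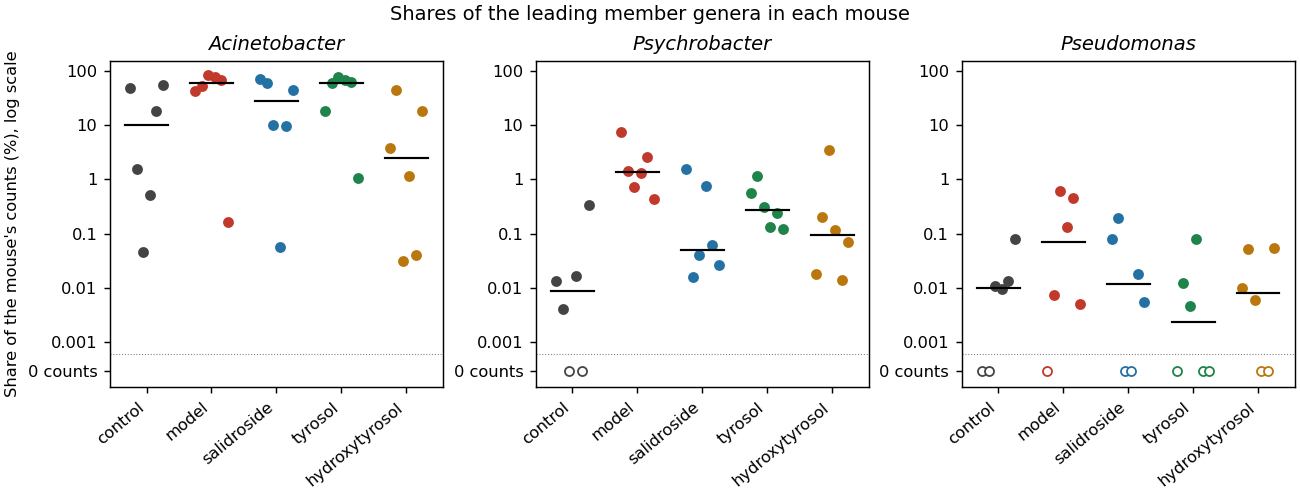
Shares of Acinetobacter, Psychrobacter and Pseudomonas in each of the 30 mice (% of the mouse's counts, log axis, open circles for 0 counts, black bars for group medians above 0). The 6 model mice sit above all 6 control mice for Psychrobacter, from 0.429% upwards against at most 0.334%, while the groups overlap for Acinetobacter and Pseudomonas.

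Acinetobacter consisted of very many ASVs, of which few held most of the counts. The 151 ASVs labelled A. lwoffii held 68.0% of the counts of the 2 families. The remaining Acinetobacter counts lay mainly in 774 ASVs labelled unidentified (15.4%), 301 labelled unclassified (10.1%) and 12 labelled A. schindleri (2.06%), a species close to A. lwoffii. One ASV, ASV_14106, labelled A. lwoffii, held 47.1% of all Acinetobacter counts and had counts in 29 mice, and 56 ASVs held 90% of them. At the other end, 1066 of the 1771 ASVs (60.2%) were seen in a single mouse and together held 0.953% of the counts. Over all 12980 ASVs, 71.1% were seen in a single mouse.

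ASV_14106 was the leading Acinetobacter ASV in 26 mice. In the 18 mice on the high-fructose diet with at least 1000 Acinetobacter counts, it held between 25.3% and 60.2% of the genus. This range depends on that minimum, since hydroxytyrosol replicate 4, with 982 Acinetobacter counts, held 95.7%. It held 49.6% ± 7.36 of Acinetobacter in model mice, 49.2% ± 7.22 in tyrosol mice, 42.8% ± 13.8 in salidroside mice and 54.4% ± 32.4 in hydroxytyrosol mice (SD, n = 6 each). In control mice it held 23.4% ± 15.4.

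The Acinetobacter population of the control mice was more even on average, and in 2 of these mice Acinetobacter was abundant with little ASV_14106. In control replicate 1, where Acinetobacter was 47.3% of the counts, ASV_14106 held 1.57% of the genus and ASV_88923, without a species name, held 25.1%. In control replicate 5, with Acinetobacter at 18.4%, ASV_10794, also without a species name, led with 25.96% and ASV_14106 held 9.79%. Control replicate 6, with Acinetobacter at 55.4%, resembled the model mice in this, with ASV_14106 at 44.3%. The inverse Simpson index, the number of equally abundant ASVs that would give the same concentration, was 6.88 ± 2.92 in control mice and 3.50 ± 0.432 in model mice (SD, n = 6 each), with ranges of 3.05 to 10.4 and 2.71 to 3.97. ASVs labelled A. lwoffii made up 32.3% ± 19.0 of Acinetobacter in control mice (6.73% to 61.8%) and 66.8% ± 10.8 in model mice (50.9% to 81.7%). The groups overlapped on each of these measures, which are given as descriptions without a test, and mice with few Acinetobacter counts, such as the 38 of control replicate 3, weigh in them as much as the others.

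**Figure D3:**
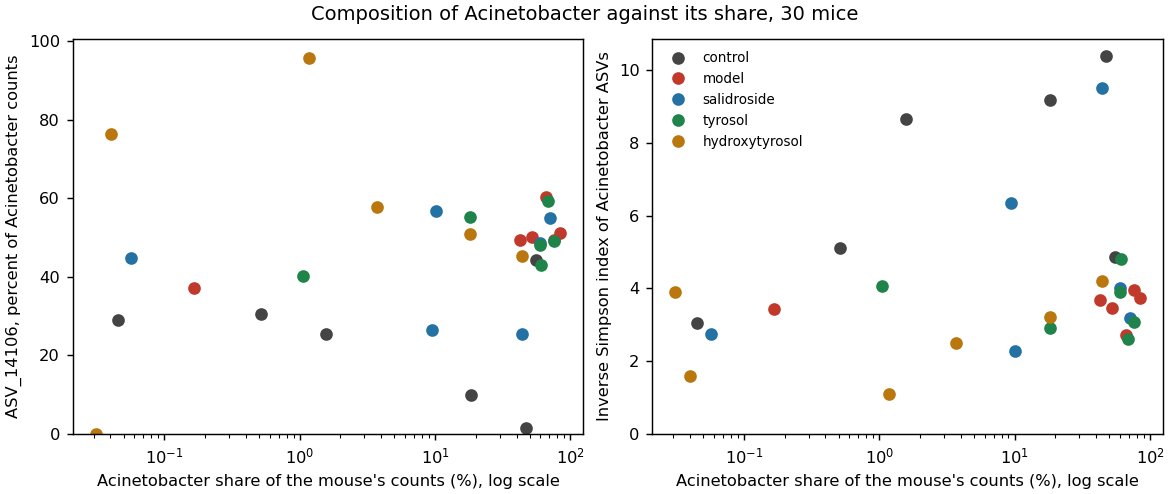
Share of ASV_14106 among Acinetobacter counts (%, left) and inverse Simpson index of the Acinetobacter ASVs (right) against the Acinetobacter share of each of the 30 mice (%, log axis), coloured by group. Control replicates 1 and 5 lie low on the left, at 1.57% and 9.79%, and high on the right, while model mice lie between 37.1% and 60.2% on the left.

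The other leading Acinetobacter ASVs followed ASV_14106 to different degrees. ASV_86274, labelled A. lwoffii, was the second with a mean share of 3.35% over the 30 mice, and reached 8.56% in tyrosol mice against 3.55% in model mice and 0.528% in control mice. Tyrosol replicate 3 alone held 21.5%, and in edgeR the tyrosol mice did not pass against the model mice for ASV_86274 (log2 fold change 1.48, SE 1.30, adjusted p = 0.596). Across the 30 mice the shares of ASV_86274 and ASV_20427 ranked much as those of ASV_14106 did (Spearman's rho 0.892 and 0.904), and those of ASV_30508 and ASV_10794 less so (0.638 and 0.508). These correlations describe ASVs counted in the same 30 libraries and of the same total, so each shares its depth and denominator.

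Psychrobacter was the second genus, with 2.34% of the counts of the 2 families and counts in 28 mice. Its share was 2.34% ± 2.67 in model mice and 0.0614% ± 0.134 in control mice (SD, n = 6 each). The model mice held 7.57%, 1.40%, 0.737%, 1.32%, 2.58% and 0.429% in replicates 1 to 6, and the control mice 0.0137%, 0.00416%, 0, 0.0167%, 0 and 0.334%. The groups did not overlap, since all 6 model mice were above the highest control mouse. Psychrobacter rose in model mice in both tests, by a log2 fold change of 4.92 in edgeR (SE 1.73, adjusted p = 0.0392) and by 2.28 percentage points in the exact permutation test (p = 0.00216, the smallest that 6 against 6 mice can give, adjusted p = 0.0332). It was 1 of 6 member genera tested that passed in edgeR, where the ASVs without a genus name of each family counted as 1 genus. Of all 92 genera, 23.9% passed in either direction and 13.0% in the direction of higher in model mice. In the exact permutation test, 8 of the 92 genera had an adjusted p under 0.05. Model replicate 6, in which Acinetobacter was 0.166% (95% Wilson interval 0.143% to 0.194%), still held 0.429% Psychrobacter (0.391% to 0.472%).

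The edgeR call was lost when control replicate 1, 2, 3 or 4 or model replicate 1 was left out, with adjusted p between 0.0716 and 0.105 and log2 fold changes between 3.74 and 4.78, when Acinetobacter was taken out of the counts and totals (log2 fold change 4.03, adjusted p = 0.0864) and when no filter on low counts was set (4.13, adjusted p = 0.113). In the exact permutation test the adjusted p lay between 0.0538 and 0.0657 when control replicate 1, 2, 3 or 4 or model replicate 1, 2, 4, 5 or 6 was left out, with 5 against 6 mice, and was 0.0537 in shares of the counts without Acinetobacter. The direction was the same in each case.

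In the treated groups Psychrobacter stood between the model and the control means. It was 0.406% ± 0.621 with salidroside (median 0.0506%, 0.0159% to 1.52%), 0.415% ± 0.389 with tyrosol (median 0.271%, 0.120% to 1.14%) and 0.651% ± 1.39 with hydroxytyrosol (median 0.0932%, 0.0142% to 3.48%, SD, n = 6 each). Against model mice the exact permutation test gave p = 0.0346 for salidroside, 0.0195 for tyrosol and 0.190 for hydroxytyrosol, and adjusted over all genera tested these became 0.455, 0.159 and 0.487. A p under 0.05 before adjustment was reached by 8.7%, 18.4% and 21.9% of the genera in these comparisons. In edgeR the log2 fold changes were -2.66 (SE 1.38), -2.90 (SE 0.958) and -2.31 (SE 1.32), with adjusted p = 0.424, 0.104 and 0.339. The hydroxytyrosol value depended on replicate 3, which held 3.48% (95% Wilson interval 3.37% to 3.60%) when the next highest mouse held 0.206%. Without that mouse the edgeR log2 fold change was -4.88 and passed (adjusted p = 0.0364), and without model replicate 6 the tyrosol comparison passed as well (log2 fold change -3.11, adjusted p = 0.0468).

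Most Psychrobacter counts lay in 2 ASVs labelled P. sanguinis, a species first described from blood, and the counts of the 2 did not run in parallel in every mouse. ASV_22825 had counts in 28 mice and a mean share of 0.597%, and ASV_21 had counts in 19 mice and a mean share of 0.1005%. Neither passed between model and control mice in edgeR. The log2 fold changes were 5.87 for ASV_22825 (SE 2.51, adjusted p = 0.0622) and 5.24 for ASV_21 (SE 2.47, adjusted p = 0.102). In model replicates 1 to 5 the counts of ASV_22825 were 5440, 1117, 490, 796 and 1963, and those of ASV_21 were 889, 111, 198, 355 and 479. In model replicate 6 they were 429 and 1, in salidroside replicate 4 they were 556 and 1, and in hydroxytyrosol replicate 3 they were 3048 and 0. ASV_21 was thus at or near 0 in 3 mice in which ASV_22825 was abundant, and in these mice Acinetobacter was at 0.166%, 0.0571% and 0.0312%. Salidroside replicate 5, tyrosol replicate 6 and hydroxytyrosol replicate 4 also had 0 counts of ASV_21, with 51, 83 and 67 of ASV_22825. In these, Acinetobacter was at 9.43%, 1.05% and 1.17%.

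Over the 30 mice the share of ASV_21 ranked with that of Acinetobacter (Spearman's rho 0.770) and of ASV_14106 (0.826), and the share of ASV_22825 less so (0.330 and 0.391). The rho of the 2 Psychrobacter ASVs with each other was 0.701. A smaller P. sanguinis ASV, ASV_65703, behaved as ASV_21 did, with a rho of 0.783 to Acinetobacter and 0.847 to ASV_21, and was at 0 in all 6 hydroxytyrosol mice. ASV_70662, labelled P. pulmonis, was found in 11 mice, at 0 in all control mice and at most 0.345%, in hydroxytyrosol replicate 3.

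**Figure D4:**
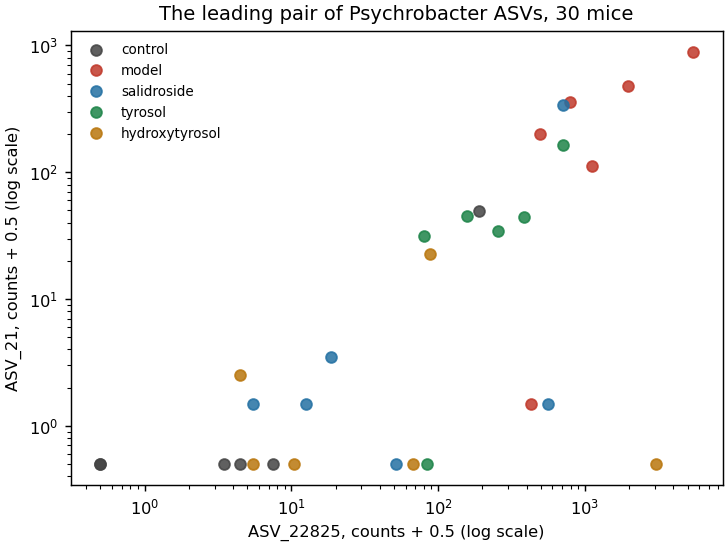
Counts of the Psychrobacter ASVs ASV_22825 (horizontal) and ASV_21 (vertical) in each of the 30 mice, with 0.5 added and both axes on a log scale, coloured by group. Most mice with many counts of ASV_22825 lie along a rising band, while model replicate 6, salidroside replicate 4 and hydroxytyrosol replicate 3 lie at the bottom right with 1, 1 and 0 counts of ASV_21.

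Pseudomonas held 0.183% of the counts of the 2 families and had counts in 20 mice. Its share was 0.200% ± 0.265 in model mice and 0.0190% ± 0.0305 in control mice (SD, n = 6 each). The model mice held 0, 0.00758%, 0.613%, 0.130%, 0.445% and 0.00498% in replicates 1 to 6, so that 3 mice were well above the highest control mouse (0.0801%) and the other three within the control range. The log2 fold change was 3.81 in edgeR (SE 1.77, adjusted p = 0.107), and the exact permutation test gave p = 0.154 (adjusted p = 0.283). The adjusted p in edgeR became 0.0303 without control replicate 6.

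With treatment the Pseudomonas share was 0.0497% ± 0.0775 (salidroside), 0.0162% ± 0.0316 (tyrosol) and 0.0204% ± 0.0257 (hydroxytyrosol), with 2, 3 and 2 mice at 0 counts. The edgeR log2 fold changes against model mice were -2.67 (SE 1.69), -4.70 (SE 1.88) and -4.22 (SE 1.86), with adjusted p = 0.488, 0.124 and 0.205. None of these comparisons passed, and in the exact permutation test the lowest adjusted p of the 3 was 0.377.

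The largest Pseudomonas ASV, ASV_907, labelled P. viridiflava, a species known from plants, had a mean share of 0.145% in model mice, with 0.489% in replicate 3 and 0.314% in replicate 5, and was at 0 in all 6 hydroxytyrosol mice and in 5 control mice. It ranked with ASV_69285 and ASV_11408, Pseudomonadaceae without a genus name (Spearman's rho 0.951 and 0.897), and these 3 ASVs were found in 8, 7 and 6 mice. ASV_54692, labelled P. stutzeri, a soil and water denitrifier, was found in 10 mice.

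The remaining genera were small. Moraxellaceae without a genus name had mean shares of 0.106% in control, 0.359% in model, 0.442% in salidroside, 0.166% in tyrosol and 0.0467% in hydroxytyrosol mice. Their largest ASVs were ASV_52461, with a mean share of 0.146% in salidroside mice from 2 mice, and ASV_39117, with counts in 13 mice, 5 of them in the model and 6 in the tyrosol group and 0 in the hydroxytyrosol group. Alkanindiges, a genus known for growth on alkanes, was at 0.0184% in control, 0.0106% in model, 0.0560% in salidroside, 0.0510% in tyrosol and 0.00299% in hydroxytyrosol mice. Enhydrobacter was found in 3 mice with 15 counts in all and was not tested. Neither these genera nor the 2 families as wholes passed the adjusted threshold in any of the 7 comparisons in edgeR, where the share of all families that passed was 17.2% between model and control mice, 13.2%, 3.33% and 11.9% between salidroside, tyrosol and hydroxytyrosol mice and the model mice, and 2.04%, 0.0% and 1.82% for salidroside against tyrosol, salidroside against hydroxytyrosol and hydroxytyrosol against tyrosol. Of all genera, 4.35%, 2.04% and 4.17% passed in the 3 treatment comparisons and 0.0%, 0.0% and 1.09% between the compounds.

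At the level of single ASVs, testing was limited to those that reached 10 counts in 4 or more of the 12 mice compared, which left 41 to 174 of the 1771 members, depending on the comparison. Between model and control mice 165 members were tested and 10 passed an adjusted p of 0.05 in edgeR, 6 higher and 4 lower in model mice, which is 6.06% of the members against 30.4% of all 411 ASVs tested, where 7.3% were higher and 23.1% lower. All 10 were Acinetobacter. The 4 that fell in model mice were ASV_88923 (log2 fold change -9.19, SE 2.82, adjusted p = 0.00551), ASV_38219, ASV_49979 and ASV_51066, all without a species name. In 3 of them the control level rested mainly on replicate 1, which held 11.9% ASV_88923, 1.67% ASV_38219 and 2.21% ASV_51066, when no other control mouse held more than 0.195%, 0.0270% and 0.0648% of them. ASV_51066 had counts in 4 model mice and 3 control mice. ASV_49979 was highest in control replicate 5, with 0.774%, and had counts in 5 control mice. Of the 6 that rose, 5 were at 0 in all control mice and had counts in 4 or 5 of the 6 model mice. Measured against 3 counts per control mouse, these were at least 37.8-fold higher in model mice for ASV_41351, 20.02-fold for ASV_32090, 17.4-fold for ASV_36454, 13.8-fold for ASV_76521 and 5.87-fold for ASV_53182. The sixth, ASV_89728, had a log2 fold change of 6.57 (SE 2.65, adjusted p = 0.0435). It had counts in 4 model mice and 1 control mouse, and its model mean of 0.476% (SD 1.05) included 1 mouse with 2.61%. ASV_14106 itself did not pass (log2 fold change 2.36, SE 2.01, adjusted p = 0.423).

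An ASV that is absent from one group enters such a test through the mice of the other group alone, and so had to differ in order to be tested. Of the 165 members, 8 reached 10 counts in mice of 1 group alone and 6 of these were called, whereas 157 reached it in both groups and 4 of these were called. The number called in this comparison was 0 with no filter on low counts, 39 without control replicate 6 and between 3 and 6 without control replicate 1, 2, 3, 4 or 5 or model replicate 1, 2, 3, 4 or 5.

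In salidroside mice 1 of 170 members tested was called against model mice (4.19% of all 358 ASVs were called, 0.559% as lower). This was ASV_40053, an Acinetobacter without a species name that was at 0 in all salidroside mice, at least 18.9-fold below the model mean. It had counts in 4 model mice and 1 control mouse. It reached 10 counts in model mice alone, and so had to differ in order to be tested. Of the 167 members that reached 10 counts in both groups, 0 were called. No member was called when any single mouse of the 12 other than model replicate 1 or 6 was left out. In tyrosol mice 1 of 174 members was called (8.49% of all 424 ASVs, 0.943% as lower). This was ASV_41351, labelled A. lwoffii, which was at 0 in all tyrosol mice, at least 54.9-fold below the model mean of 0.168%. It too reached 10 counts in model mice alone, and 0 of the 172 members that reached it in both groups were called. The same ASV was at 0 in all control and hydroxytyrosol mice and in 5 salidroside mice, and its call against model mice was lost without model replicate 3, 4 or 5.

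In hydroxytyrosol mice 55 of 106 members tested were called against model mice, all lower, where 24.5% of all 290 ASVs were called lower and 32.8% in either direction. The 5 with the largest fold changes were ASV_43260, ASV_35681, ASV_46648, ASV_34513 and ASV_63780, all Acinetobacter, which were at 0 in all 6 hydroxytyrosol mice and at least 163-, 147-, 134-, 127- and 118-fold below the model mean. The model means were 0.561% ± 0.547, 0.508% ± 0.533, 0.460% ± 0.614, 0.439% ± 0.419 and 0.408% ± 0.473 (SD, n = 6 each). They came from 4, 5, 5, 4 and 5 model mice, and all 5 ASVs were at 0 in model replicate 6. Of the 55, 51 were Acinetobacter, 2 were Psychrobacter and 2 had no genus name, and 51 had 0 counts in all hydroxytyrosol mice. This count rests on the filter described above: 58 of the 106 members reached 10 counts in model mice alone and 53 of these were called, whereas 48 reached it in both groups and 2 of these were called. The 2, named here after their values were seen, were the Psychrobacter ASV_21 (log2 fold change -6.05, SE 2.39, adjusted p = 0.0464) and the Acinetobacter ASV_57933 (-6.39, SE 2.47, adjusted p = 0.0417). The number called was 0 with no filter and 21 with a filter of 50 counts, and fell to 9, 9 and 10 without model replicate 3, 4 or 5 and to 34 without model replicate 1 or 2.

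The 55 ASVs were chosen by the contrast of hydroxytyrosol with model mice, so their levels in those groups are a description. Summed, they held 3.46%, 14.2%, 11.9%, 13.0%, 7.54% and 0.0139% of the counts in model replicates 1 to 6 and at most 0.0806% in any hydroxytyrosol mouse. Their low level in the hydroxytyrosol mice, among them replicate 2 with 44.1% Acinetobacter, was fixed by this choice. In the groups that did not enter the choice, the sum ranged from 0.00238% to 7.71% in control, from 0.00117% to 9.58% in salidroside and from 0.0760% to 9.32% in tyrosol mice.

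**Figure D5:**
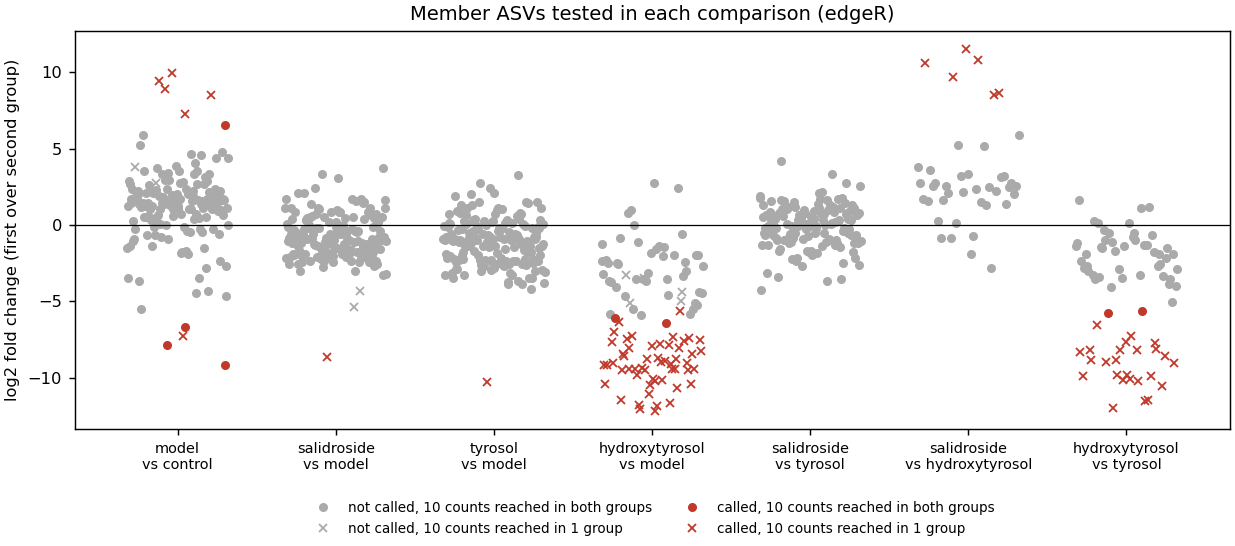
Log2 fold changes of the member ASVs tested in each of the 7 comparisons (edgeR, first over second group), red where the adjusted p was under 0.05, with crosses for ASVs that reached 10 counts in mice of 1 group alone. Against model mice the 55 called in hydroxytyrosol mice are all below 0, and 53 of them are crosses.

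Salidroside is the glucoside of tyrosol, and hydroxytyrosol carries an additional hydroxyl group on the ring, so the 3 pairs of compounds compare a glucoside with its aglycone and phenols that differ in ring hydroxylation, at doses matched in moles. For Acinetobacter, the difference of hydroxytyrosol from tyrosol mice was -36.1 percentage points (exact permutation p = 0.0325, p = 0.0974 adjusted over the 3 pairs of compounds and 0.252 over all genera), with an edgeR log2 fold change of -2.18 and a 95% interval from -5.57 to 1.205. Salidroside and hydroxytyrosol mice differed by 21.2 points (exact permutation p = 0.139, adjusted over the pairs 0.208, log2 interval -1.64 to 5.77), and salidroside and tyrosol mice by -14.9 points (exact permutation p = 0.372, log2 interval -3.27 to 2.40). No pair passed, and a p under 0.05 before adjustment was reached by 16.3%, 8.24% and 10.1% of all genera in these comparisons. Each interval included no change.

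For Psychrobacter the 3 log2 fold changes were 0.17 for salidroside against tyrosol (95% interval -2.14 to 2.49), -0.27 for salidroside against hydroxytyrosol (-3.31 to 2.76) and 0.26 for hydroxytyrosol against tyrosol (-2.20 to 2.73). After adjustment over the pairs, the edgeR p was 0.876 for each, and the exact permutation p before adjustment was 0.991, 0.771 and 0.991. The direction turned with the method in each of the 3 pairs. For Pseudomonas the intervals were -1.72 to 5.46, -1.80 to 4.90 and -2.91 to 3.89. A difference of several fold between compounds in either genus therefore could not be told from none with 6 mice a group.

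Single ASVs gave 0 of 140 members called between salidroside and tyrosol mice (0.0% of all 394 ASVs, with 0 members and 28 ASVs in all at an unadjusted p under 0.05 in edgeR, and 0 members in DESeq2). Salidroside mice were higher than hydroxytyrosol mice in 6 of 41 members (7.56% of all 225 ASVs were higher and 10.7% differed in either direction), all Acinetobacter at 0 in every hydroxytyrosol mouse, of which ASV_34513 was at least 90.4-fold higher. Hydroxytyrosol mice were lower than tyrosol mice in 27 of 74 members (23.2% of all 319 ASVs were lower and 27.0% differed in either direction). Of these 27, 25 reached 10 counts in tyrosol mice alone, and the other two were ASV_30884 and ASV_57933, named here after their values were seen. The 27 became 46 without hydroxytyrosol replicate 2 and 10 or 11 without tyrosol replicate 2, 3, 4 or 5. The 6 became 15 without hydroxytyrosol replicate 2 and 0 or 1 without salidroside replicate 1, 2, 5 or 6.

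Across the 30 mice the log2 shares of Acinetobacter and Pseudomonas, with 0.5 count added, ranked together (Pearson's r = 0.429, permutation p = 0.0188, adjusted p = 0.0564 over the 3 pairs of genera; Spearman's rho = 0.487, permutation p = 0.00659, adjusted p = 0.0198). Pseudomonas had counts in 20 of the 30 mice, and in the others its log2 share depended on library depth alone. Without the 2 mice farthest from the median of Acinetobacter r was 0.412 and rho 0.488. After each group was centred on its own mean, r was 0.470 and rho 0.576 (permutation p = 0.00907 and 0.00097), and within the single groups of 6 rho ran from 0.200 in control to 0.886 in model mice and r from 0.0303 in control to 0.714 in hydroxytyrosol mice. The relation was above 0 in each group, and in control mice it was near 0 by r.

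For Acinetobacter and Psychrobacter r was 0.261 (permutation p = 0.164, adjusted 0.246) and rho 0.359 (permutation p = 0.0528, adjusted 0.0793), which became 0.0926 and 0.0768 once group means were removed. For Psychrobacter and Pseudomonas r was 0.144 (permutation p = 0.449) and rho 0.109 (permutation p = 0.567), and in shares of the counts without Acinetobacter r was 0.339 (permutation p = 0.0666) and rho 0.336 (permutation p = 0.0700). Without the 2 mice farthest from the median of the first genus, r was 0.377 (permutation p = 0.0476) and rho 0.463 (permutation p = 0.0148) for Acinetobacter and Psychrobacter, before adjustment, so that this relation depended on those mice. For Psychrobacter and Pseudomonas they were 0.223 and 0.169.

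Of 64 other genera with counts in at least 15 mice, those whose shares ranked most like Acinetobacter over the 30 mice were Arthrobacter (Spearman's rho 0.778), Simiduia (0.660) and Stenotrophomonas (0.653). For Psychrobacter they were Salinicoccus (0.560), Corynebacterium (0.535) and Stenotrophomonas (0.487), and for Pseudomonas Acidovorax (0.647), Stenotrophomonas (0.523) and Wautersiella (0.459). Streptococcus ranked most opposite to Acinetobacter (-0.725). All are shares of the same libraries, in which a rise of Acinetobacter lowers the others by construction.

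Among a list of 36 other genera of obligate aerobes, chosen from general knowledge, 9 were tested between model and control mice and 1, Ochrobactrum, was called higher in model mice (log2 fold change 4.30, SE 1.58, adjusted p = 0.0433), with a median log2 fold change of 1.40 for the list against 0.38 over all 92 genera, of which 13.0% were called higher. Against model mice, salidroside mice were lower in 2 of 10 (4.35% of all genera were called in either direction), Sphingobacterium, which was at 0 in all salidroside mice, and Stenotrophomonas (log2 fold change -6.06, SE 1.71, adjusted p = 0.0364). Tyrosol mice had 0 of 12 called (2.04% of all genera) and hydroxytyrosol mice 1 of 11 (4.17%), again Stenotrophomonas (-6.27, SE 1.68, adjusted p = 0.0407). Both genera reached 10 counts in none of the mice of the lower group and entered these tests through the model mice alone, so, as for such ASVs, they had to differ. The list without the 2 families held 10.6% ± 15.7 of the counts in model mice and 3.91% ± 2.498 in control mice (SD, n = 6 each), and the model mean included the 42.3% of replicate 6. In lists made in the same way, facultative anaerobes had 3 of 13 genera called higher and 0 lower in model than in control mice, and obligate anaerobes 5 higher and 4 lower of 20. Against model mice, 0 of 12 facultative anaerobes were called with each compound, and of the obligate anaerobes 1 of 21 was called higher with salidroside, 2 of 21 with tyrosol and 2 of 22 with hydroxytyrosol.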

How the data were processed

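The fecal 16S rRNA gene amplicons of 30 mice were used as 3 deposited tables of raw counts per ASV with a taxonomy label, made by the authors from their reads: a filtered table (main), an unfiltered table and a rarefied table. The authors' methods name QIIME quality control, FLASH merging, UCHIME chimera removal and the grouping of similar sequences into operational taxonomic units. Their read log instead lists denoising and the removal of singletons, which sets the filtered apart from the unfiltered table. The rows of the tables are named as ASVs and were read as such here. The version of the reference taxonomy was not given in the sources used here, and the ASV sequences were not analysed here. A table of numbers of taxa per sample was not used. Samples were grouped by their labels. Counts were summed by family and genus. The members and the genus lists were chosen with earlier results of these data known.

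Features that reached 10 counts in 4 or more of the 12 mice compared were tested with edgeR 4.0.16 in R 4.3.3 (TMM scaling, quasi-likelihood test), adjusted by Benjamini-Hochberg over all features tested, with 0.05 as the threshold. Mean shares of the genera were compared with two-sided exact permutation tests over 924 splits (SciPy 1.17.1), which cannot go below p = 0.00216, and correlations with 100000 permutations. Steps were tested on simulated data, in which large folds were recovered at a low spread between mice, whereas no changed ASV was called at the spread estimated for hydroxytyrosol against model mice. A fold against a group at 0 was set against 3 counts per mouse. Named were the genera with at least 10 counts, the 5 leading ASVs of the 3 main genera and the 2 leading ASVs of the rest of each family, up to 5 called ASVs with the largest change in each direction, and the 3 genera outside the families most alike in rank. Of the 75 pairs of mice of the same group, 0 had identical counts. Alternatives were the other tables, scalings and filters, DESeq2 1.42.0, limma 3.58.1 on centred log-ratios, a replicate block and leaving out each mouse.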

Additional observations from a re-analysis of the deposited data

Results flagged for a closer look

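In 16 of 45 groups of 6 mice, 1 mouse lay so far from the next that the gap took up more than 0.625 of the whole range of the group, which chance gives in about 1 in 20 groups of normally spread values. Shares bounded at 0 are not spread in that way, and neighbouring results count some of the same reads again. Control replicate 6 stood above the other control mice with 0.334% Psychrobacter (the next mouse had 0.0167%) and 0.0801% Pseudomonas. It also did so for the ASVs without a genus name, with 0.407% in Moraxellaceae and 0.0203% in Pseudomonadaceae, and so for the family Pseudomonadaceae (0.1004%). For Psychrobacter, model replicate 1 with 7.57% stood above the next model mouse (2.58%) and hydroxytyrosol replicate 3 with 3.48% above the next of its group (0.206%).

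Among the rarer taxa, tyrosol replicate 4 stood apart with 0.0799% Pseudomonas, 0.0526% Pseudomonadaceae without a genus name and 0.133% for the family Pseudomonadaceae. Hydroxytyrosol replicate 2, the mouse of its group with the most Acinetobacter, stood apart with 0.207% Moraxellaceae and 0.0250% Pseudomonadaceae without a genus name. Tyrosol replicate 5 held 0.154% Alkanindiges. Enhydrobacter was found in 1 mouse each of the model (0.00649%), salidroside (0.00938%) and tyrosol (0.00188%) groups, so any count at all stood apart there.

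The direct tests between compounds called 6 member ASVs between salidroside and hydroxytyrosol mice and 27 between hydroxytyrosol and tyrosol mice, and of these 6 and 25 had reached 10 counts in mice of 1 group alone.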

How the results depend on the processing

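The rise of Psychrobacter in model mice kept its direction in every alternative run but not always its call. Its log2 fold change was 4.13 with no filter (adjusted p = 0.113) and 4.03 with Acinetobacter left out of counts and totals (0.0864), and 3.74 to 7.61 with 1 mouse left out, while the other alternatives ranged up to 7.79 on centred log-ratios (0.00108) and 8.44 with the replicate block (0.00787). Its difference in share was 5.59 points of the counts without Acinetobacter (0.0537) and 1.23 to 2.66 points with 1 mouse left out. Pseudomonas passed between model and control mice in DESeq2 (3.94, 0.0301) and with a filter of 50 counts (4.65, 0.0279), and ranged from 2.70 to 5.65 with 1 mouse left out. Psychrobacter passed between tyrosol and model mice in DESeq2 (-2.48, 0.0435) and between hydroxytyrosol and model mice on centred log-ratios (-4.26, 0.0417), and with 1 mouse left out ranged from -3.50 to -1.99 and from -4.88 to -2.13.

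The replicate numbers did not pair the mice: at most 3 of 6 same-numbered pairs of a comparison had deviations that correlated over 0.1. With the replicate block, the Psychrobacter difference of 2.28 points between model and control mice had an adjusted p of 0.205 in an exact permutation test that cannot go below 0.03125 before adjustment, 0 member ASVs were called in that comparison and 0 between salidroside and model mice. With the block the Psychrobacter log2 fold change was -1.48 for salidroside against tyrosol, 0.36 for salidroside against hydroxytyrosol and -1.48 for hydroxytyrosol against tyrosol, each opposite in sign to the unblocked value.

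The sign of the Psychrobacter difference between compounds also turned elsewhere. For salidroside against tyrosol it was -0.0311 with library totals, -1.03 on centred log-ratios, -0.10 with no filter, -0.20 without Acinetobacter and -1.52 for mean log2 shares, and -1.28 to 0.75 with 1 mouse left out. For salidroside against hydroxytyrosol it was 0.23 on centred log-ratios and -1.92 to 2.55 with 1 mouse left out. For hydroxytyrosol against tyrosol it was -1.37 on centred log-ratios, -1.47 for mean log2 shares and -2.18 to 0.88 with 1 mouse left out.

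Acinetobacter passed the threshold in none of the alternatives run, in which its log2 fold change ranged from 0.38 to 4.06 between model and control mice and from -4.64 to -2.09 between hydroxytyrosol and model mice, besides those with 1 mouse left out. Its log2 fold change between tyrosol and model mice was 0.20 for mean log2 shares, and its difference in share there was -16.9 to 2.99 points with 1 mouse left out. With 1 mouse left out its log2 fold change was -0.0357 to 1.95 between model and control mice (below 0 without model replicate 3) and -0.85 to 0.19 between salidroside and tyrosol mice. That of Pseudomonas was -0.10 to 2.54 between hydroxytyrosol and tyrosol mice. The Spearman correlation of Psychrobacter and Pseudomonas was -0.0291 after centring on group means.

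Counts of member ASVs called moved most. Between model and control mice the count of 10 became 6 with library totals, 0 with no filter and 6 with a filter of 50 counts, and 3 to 39 with 1 mouse left out. Between salidroside and model mice the count of 1 became 0 with no filter, with a filter of 50 counts and in one model of all 30 mice, and 0 to 4 with 1 mouse left out. Between tyrosol and model mice it became 0 with no filter and 0 to 2 with 1 mouse left out. Between hydroxytyrosol and model mice the count of 55 became 0 with no filter, 21 with a filter of 50 counts and 9 to 79 with 1 mouse left out. The 6 between salidroside and hydroxytyrosol mice became 0 with no filter, 1 with a filter of 50 counts and 0 to 15 with 1 mouse left out. The 27 between hydroxytyrosol and tyrosol mice became 3 with no filter, 5 with a filter of 50 counts, 14 in the rarefied table and 10 to 46 with 1 mouse left out. With no filter more ASVs were adjusted for, and the rarefied table and the stricter filter tested fewer; the cause of the other changes was not tested. Library totals in place of TMM moved the median log2 fold change of all genera by -0.45 between model and control mice and by 0.74 between tyrosol and model mice, and the share of higher calls among genera between model and control mice from 54.5% to 42.1%, and among ASVs between salidroside and hydroxytyrosol mice from 70.8% to 60.7%.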
